A study of Mus musculus with 8 samples.

Results

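Groucho corepressors and secreted Wnt regulators were examined as a group of 7 genes: Aes, Tle1, Tle2, Tle3, Tle4, Dkk1 and Rspo3. They were taken by gene symbol from the 21517 genes listed for mouse morulae or blastocysts in which the chromatin remodeler gene Smarca5, also called Snf2h, was knocked down (KD) or which served as the NC group. The members were chosen by gene family and by the KD and NC abundances of Aes, which was lower, and Dkk1, which was higher in KD embryos in earlier results of the same libraries. The KD and NC values of these 2 genes are therefore a description, and no test is given for them. The groups were KD morulae, NC morulae, KD blastocysts and NC blastocysts, with 2 libraries each. Each library held the polyadenylated RNA of 20 embryos. Embryos were taken at embryonic days 3.75 and 4.25. Which stage belongs to which day, how the knockdown was made, what NC stands for and the mouse strain are not given in the labels. The labels do not say whether replicate libraries stem from different litters or cultures, and the spread behind each p-value may therefore be technical.

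Groucho proteins, named TLE in mammals, are corepressors without DNA binding of their own. They are brought to genes by TCF/LEF factors and by other repressors such as the Hes proteins, and on TCF/LEF they are displaced when β-catenin accumulates after a Wnt signal. A full-length TLE has an N-terminal domain that forms tetramers and binds TCF/LEF, and a C-terminal WD40 domain that binds many repressors. Aes, now also named Tle5, is a short relative without the WD40 domain and can oppose the full-length proteins. Dkk1 is a secreted inhibitor that binds the Wnt co-receptors Lrp5 and Lrp6, and Rspo3 is a secreted protein that raises Wnt responses by keeping Frizzled receptors at the cell surface. Dkk1 is itself a known target of Wnt signalling.

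The short and long family members share a stretch near the start of their coding sequences. It is shown here because the Aes abundance below is read against that of its full-length relatives. The 60-base window of the Aes coding sequence with the most bases equal to Tle1, Tle2, Tle3 and Tle4 together was read from the GENCODE mm10 transcripts, and in every gene it crosses the junction of exons 2 and 3. Each line is written 5′ to 3′ on the coding strand, and capitals mark bases that differ from Aes.
Aes: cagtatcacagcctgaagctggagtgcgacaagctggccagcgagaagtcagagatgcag
Tle1: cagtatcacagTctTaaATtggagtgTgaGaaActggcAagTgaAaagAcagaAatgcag
Tle2: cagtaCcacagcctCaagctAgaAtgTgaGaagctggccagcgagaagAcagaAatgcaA
Tle3: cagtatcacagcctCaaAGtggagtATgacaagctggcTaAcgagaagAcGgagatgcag
Tle4: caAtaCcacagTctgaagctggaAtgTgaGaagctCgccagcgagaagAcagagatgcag

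In this window 48 of the 60 bases were equal to Aes in Tle1, 51 in Tle2, 51 in Tle3 and 52 in Tle4. The coding sequences had 591 bases in Aes, against 2340 in Tle1, 2301 in Tle2, 2349 in Tle3 and 2319 in Tle4. By local alignment Tle1 and Tle4 were 80.7% identical over 2285 coding bases, and Aes and Tle1 were 74.7% identical over 363. Similar sequences can share reads. Of the 31-base words in its annotated transcripts, Aes shared 0.175% with any other gene, Tle3 shared none, Tle2 and Tle4 shared 1.40% each, Dkk1 2.43%, Tle1 3.37% and Rspo3 12.2%, the last with the predicted gene Gm48159.

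The genes lie apart except for one neighbouring pair. In mm10, Aes (ENSMUSG00000054452) occupies chr10:81559488-81566362 on the plus strand and Tle2 (ENSMUSG00000034771) follows at chr10:81574561-81590845 on the same strand, 8199 bases on. Rspo3 (ENSMUSG00000019880) lies on chromosome 10 too, at chr10:29452416-29535867 on the minus strand. Tle1 (ENSMUSG00000008305) is at chr4:72117142-72200919 on the minus strand and Tle3 (ENSMUSG00000032280) at chr9:61372366-61418497 on the plus strand. Tle4 (ENSMUSG00000024642), at chr19:14448150-14598051, and Dkk1 (ENSMUSG00000024868), at chr19:30545863-30549665, are both on the minus strand.

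Dkk1, as a Wnt target, was searched for the core TCF/LEF motif CTTTGA on either strand in the 250 bases before its RefSeq start (GRCm38.p6). It held 2 matches, which are printed with the motif in capitals because Dkk1 had the largest fold difference of the members in morulae. Both are written 5′ to 3′ on the minus strand, the strand of the gene.
Dkk1, chr19:30549653-30549682: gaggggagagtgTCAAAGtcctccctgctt
Dkk1, chr19:30549596-30549625: ctcctcccaaagCTTTGAaatcccatcccg

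The first match begins 174 bases before the RefSeq start and reads on the opposite strand, and the second begins 117 bases before it. The GENCODE start of Dkk1 lies 169 bases upstream of the RefSeq start, so that in GENCODE the second match falls inside the first exon. Of 32851 mouse windows of the same length, 13.8% held at least 1 match and 1.37% held 2 or more. The 5 RefSeq windows of Tle1, Tle2, Tle3 and Tle4 held 0 matches. Aes and Rspo3 had no window in the set used and were not searched. A match is a word in the sequence and shows no binding.

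The values are normalized abundances deposited in 1 table per stage, which were scaled separately, so no value is tested between the stages. Smarca5 itself was at 501 and 470.4 in KD morulae, against 9678 and 9760.5 in NC morulae, and at 906 and 855 in KD blastocysts, against 7000 and 8283 in NC blastocysts. Genes with a mean of at least 10 in a table were tested with limma on log2(abundance + 1), 13404 in morulae and 13651 in blastocysts, with Benjamini-Hochberg adjustment over all of them. At an adjusted p under 0.05, 0.00746% of genes were called in morulae (1 gene, Smarca5) and 0.0879% in blastocysts (12 genes). These counts rest on single libraries: 9 genes were called in morulae without NC replicate 1. In blastocysts 1 gene was called without KD replicate 1 and 1 without KD replicate 2, 3 without NC replicate 1 and 7 without NC replicate 2. Library depth was estimated at 16177240 to 18568756 reads in morulae and 13958296 to 23304923 in blastocysts. The estimate takes the most frequent low value among genes seen in a single library as a small whole number of reads. All 12 trophectoderm and all 10 epiblast markers were listed at both stages, and 17 of 18 primitive endoderm markers in morulae. All 7 blood markers were listed at both stages too, so being listed does not show that a lineage was present. In whole embryos, fewer cells of a type and less RNA per cell cannot be told apart.

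Of the 7 members, Aes, Tle1, Tle3, Tle4 and Dkk1 passed the filter on low values in both tables, and Tle2 and Rspo3 passed it in neither. Among Tle1, Tle3 and Tle4, whose direction did not choose them, 0 passed limma's test at either stage. At an unadjusted p under 0.05, which 10.4% of all tested genes met in morulae and 17.6% in blastocysts, Tle3 passed in blastocysts and none of the 3 passed in morulae.

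**Figure D1:**
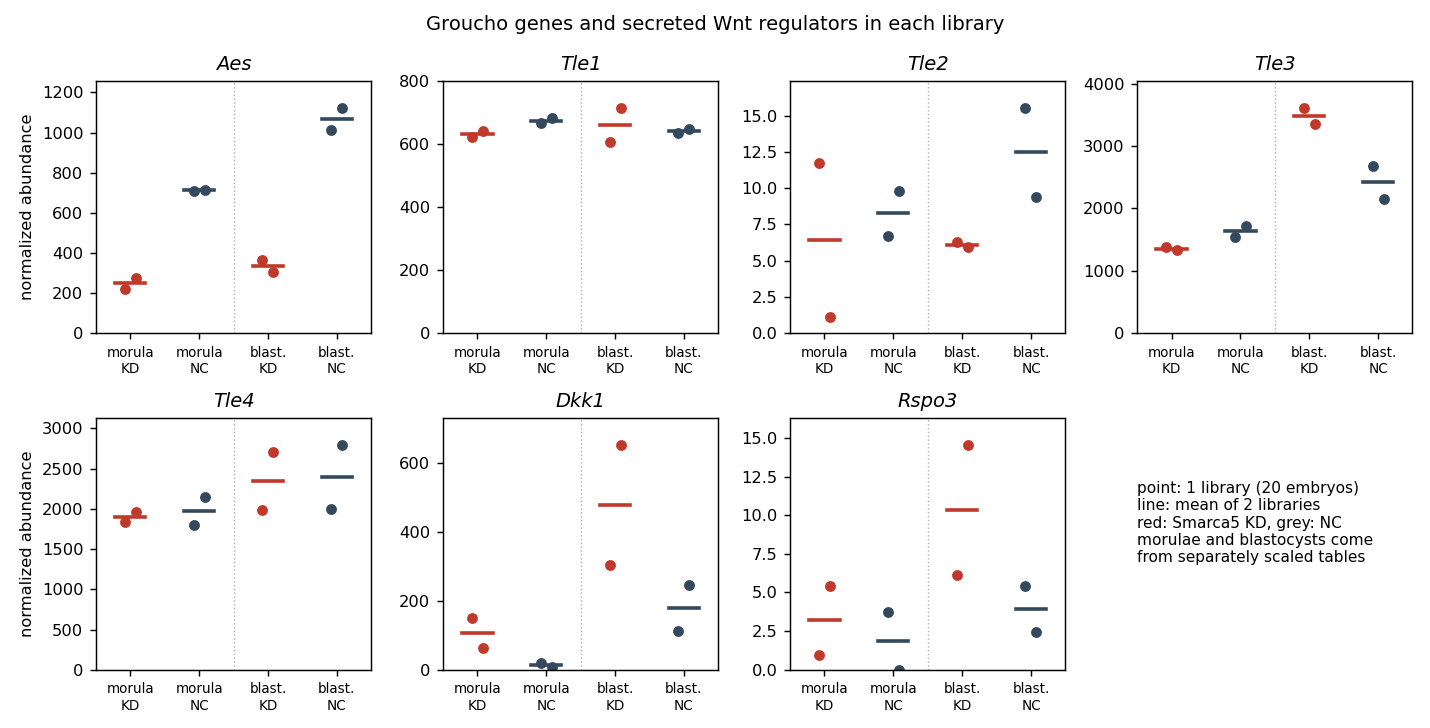
Normalized abundance (linear axis from 0) of the 7 genes, 1 panel per gene, with KD left of NC for each stage. Points are the 2 libraries of a group (20 embryos each), lines are their means, and the 2 stages come from separately scaled tables. Aes in KD morulae sits at 222 and 275 and in NC morulae at 709 and 715; in the Dkk1 panel both KD blastocyst points, 305 and 653, stand above both NC points, 112 and 245.

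Aes, the short Groucho relative, was lower in KD embryos at both stages. In morulae it was at 222 and 275 in the KD libraries, against 709 and 715 in the NC libraries. In blastocysts it was at 364 and 303 in the KD libraries, against 1015 and 1122 in the NC libraries. Every KD library was below every NC library of its stage, and the gap between the groups was wider than the spread within either. The KD mean was 248 ± 37.3 and the NC mean 712 ± 3.98 in morulae (SD, n = 2 each), which is 2.87-fold lower in KD. In blastocysts the means were 333 ± 43.1 in KD and 1068 ± 76.1 in NC (SD, n = 2 each), 3.21-fold lower in KD. The log2 fold changes were -1.52 and -1.68, a difference of -0.16 between blastocysts and morulae. Of all genes tested at both stages, 9.54% also had both KD libraries below both NC libraries in each table.

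Tle1, a full-length corepressor, was close in the KD and NC libraries. It was at 623 and 641 in KD morulae, against 666 and 682 in NC morulae, so the KD libraries lay just below the NC libraries, as they did for 21.2% of all genes tested in morulae. In blastocysts it was at 607 and 715 in KD, against 635 and 649.5 in NC, and the groups overlapped. The log2 fold change was -0.09 ± 0.16 (SE, limma adjusted p = 0.890) in morulae and 0.04 ± 0.15 (SE, adjusted p = 0.925) in blastocysts.

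Tle3, another full-length member, was lower in KD morulae and higher in KD blastocysts, without passing the test at either stage. In morulae it was at 1379.9 and 1326 in the KD libraries, against 1538 and 1723 in the NC libraries. In blastocysts it was at 3609.9 and 3360.02 in the KD libraries, against 2686 and 2144 in the NC libraries. The groups did not overlap at either stage, and their order was opposite. Of the genes tested at both stages, 2.03% were likewise below NC in morulae and above NC in blastocysts in every library. The log2 fold change was -0.27 ± 0.14 (SE, limma adjusted p = 0.573) in morulae and 0.54 ± 0.13 (SE, adjusted p = 0.125) in blastocysts. The difference of the 2 changes was 0.80 ± 0.19 (SE, adjusted p = 0.775), one of the 5.34% of genes past an unadjusted p of 0.05 in that comparison. No gene, 0 of 12875, passed it after adjustment.

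Tle4 was the most abundant full-length member per kilobase, and its KD and NC libraries overlapped at both stages. It was at 1838 and 1958 in KD morulae, against 1795 and 2153 in NC morulae. In blastocysts it was at 1979.9 and 2712 in KD, against 2002 and 2797 in NC, with replicate 2 higher than replicate 1 in each group. The log2 fold change was -0.05 ± 0.15 (SE, limma adjusted p = 0.936) in morulae and -0.03 ± 0.20 (SE, adjusted p = 0.958) in blastocysts, and its sign changed when single libraries were left out.

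Tle2, the full-length member beside Aes on chromosome 10, was hardly detected. It was at 11.7 and 1.08 in KD morulae, against 6.72 and 9.83 in NC morulae, and at 6.25 and 5.94 in KD blastocysts, against 15.5 and 9.43 in NC blastocysts. By the estimate used for library depth, 1 read was worth 0.811 to 1.36 units, so these levels stand for few reads, and no fold is given for them.

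Divided by the length of their merged exons, the members ranked differently in the groups. In KD morulae Tle4 (333 per kb) and Tle3 (116) stood above Aes (74.5) and Tle1 (72.6), whose libraries overlapped. In NC morulae Aes, at 214 per kb, ranked between Tle4 (346) and Tle3 (139.9), with no overlap between these neighbours. The same held in blastocysts: in KD, Aes had 99.98 per kb and ranked below Tle4 (411) and Tle3 (299), whereas in NC it had 320.5 and ranked between Tle4 (421) and Tle3 (207). Dkk1 stood between Tle3 and Aes in KD blastocysts with 197 per kb. In NC blastocysts it had 73.7 per kb, overlapping Tle1, which also had 73.7. Among all listed genes, Aes was at the 64.2nd percentile per kb in KD morulae and the 79.2nd in NC morulae, and at the 67.0th in KD blastocysts and the 83.7th in NC blastocysts.

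**Figure D2:**
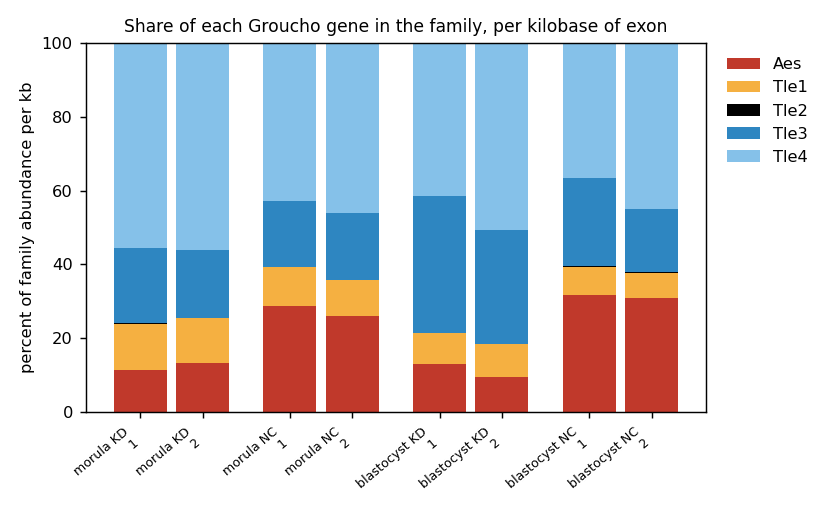
Share of Aes, Tle1, Tle2, Tle3 and Tle4 in the summed abundance per kilobase of these 5 genes, in percent, 1 stacked bar per library, with KD bars left of NC bars at each stage. The Aes segment at the bottom is 9.69% to 13.4% in the 4 KD libraries and 26.2% to 31.7% in the 4 NC libraries.

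The balance of the short to the full-length members followed from these levels. Aes made up 12.4% ± 1.40 of the family's abundance per kb in KD morulae and 27.5% ± 1.91 in NC morulae (SD, n = 2 each). In blastocysts it made up 11.4% ± 2.37 in KD and 31.3% ± 0.50 in NC (SD, n = 2 each). The groups did not overlap, and since Aes itself chose the contrast, no test is given. The summed full-length members overlapped between KD and NC libraries at both stages: 523 ± 11.8 per kb in KD morulae against 565 ± 57.2 in NC morulae, and 787 ± 84.3 in KD blastocysts against 704 ± 66.3 in NC blastocysts. With merged exons, Tle4 was the largest segment in every library. Its mean shares were 55.7% in KD and 44.4% in NC morulae, and 46.1% in KD and 40.8% in NC blastocysts. Tle3 had 33.9% in KD blastocysts and 20.5% in NC blastocysts, and 19.5% in KD morulae and 17.97% in NC morulae. In each library the shares add up to the whole, so a smaller Aes share makes the other shares larger. Per kb, Tle4 itself was at 333 in KD and 346 in NC morulae, and at 411 in KD and 421 in NC blastocysts. Tle3 was at 116 per kb in KD and 139.9 in NC morulae, and at 299 in KD and 207 in NC blastocysts.

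Dkk1, the Wnt inhibitor, was higher in KD embryos at both stages. In morulae it was at 150.1 and 64.1 in the KD libraries, against 18.5 and 7.23 in the NC libraries. In blastocysts it was at 305 and 653 in the KD libraries, against 112 and 245 in the NC libraries. The groups did not overlap, but the libraries within a group differed by a larger factor than for any Groucho gene that passed the filter: replicate 1 was the higher one in both morula groups and replicate 2 in both blastocyst groups. The means were 107 ± 60.8 in KD and 12.9 ± 7.98 in NC morulae (SD, n = 2 each), 8.32-fold higher in KD. In blastocysts they were 479 ± 246 in KD and 179 ± 94.1 in NC (SD, n = 2 each), 2.68-fold higher in KD. The log2 fold changes were 2.97 and 1.42, a difference of -1.55 between blastocysts and morulae. The blastocyst value was 0.86 without NC replicate 1 and 0.87 without KD replicate 2. Of all genes tested at both stages, 9.41% also had both KD libraries above both NC libraries in each table.

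Rspo3 was near the limit of detection. It was at 0.96 and 5.43 in KD morulae, against 3.71 and 0 in NC morulae, and at 6.13 and 14.6 in KD blastocysts, against 5.42 and 2.43 in NC blastocysts. The morula groups overlapped, and both KD blastocyst libraries lay above the NC ones, at a mean over the 4 libraries below the filter of 10.

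Dkk1 is a gene of the anterior visceral endoderm after implantation, a descendant of the primitive endoderm, so the levels of primitive endoderm markers are given beside it. The 18 markers summed to 45343 and 52683 in KD morulae, against 46189 and 43604 in NC morulae, and to 81741 and 92069.9 in KD blastocysts, against 73722 and 79674 in NC blastocysts. The sums overlapped in morulae and not in blastocysts. Of the tested markers, 10 of 14 in morulae and 14 of 17 in blastocysts had a log2 fold change above 0. The others, 4 in morulae and 3 in blastocysts, were below 0, and 0 passed limma's test at either stage. At an unadjusted p under 0.05 there were 3 in morulae and 6 in blastocysts, all higher in KD, beside 10.4% and 17.6% of all tested genes in either direction. Sox17 and Gata4 were picked outside the rule that names genes of the pathway lists. Both were above 0 in morulae, so they do not stand for the whole list. Sox17, a transcription factor of this lineage, was at 186 and 72.7 in KD morulae, against 16.1 and 0 in NC morulae. In blastocysts Sox17 was at 892 and 1915 in KD, against 704 and 1353 in NC, with the same replicate higher as for Dkk1 in each group. Gata4, another such factor, was at 181 and 351 in KD morulae, against 51.5 and 172 in NC morulae, with the other replicate higher. Foxa2 was not listed in morulae.

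Set against the summed markers, Dkk1 remained apart between the groups. It had 3.31 and 1.22 units per 1000 units of marker sum in KD morulae, against 0.401 and 0.166 in NC morulae. In blastocysts it had 3.73 and 7.09 in KD, against 1.52 and 3.08 in NC. All KD libraries were above the NC libraries of their stage. In these sums abundant markers weigh most, and a marker as low as Sox17 in morulae weighs little. The marker sums differed far less between the groups than Dkk1 did. The ratio therefore largely repeats the Dkk1 values, which chose the gene, and cannot show the part of the marker genes. That part was not tested.

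The markers of the other lineages are given in the same way. Trophectoderm markers summed to 36145 and 34968 in KD morulae, against 41067 and 36969 in NC morulae, and to 111656 and 127820.5 in KD blastocysts, against 99508 and 101217 in NC blastocysts. Epiblast markers summed to 40933 and 39143 in KD morulae, against 38320 and 42243 in NC morulae, and to 32885 and 34529 in KD blastocysts, against 37660.3 and 41043 in NC blastocysts. Of the 10 epiblast markers, 7 were below 0 in log2 fold change in morulae and all 10 in blastocysts, and 0 passed limma's test at either stage. At an unadjusted p under 0.05, met by 10.4% of all tested genes in morulae and 17.6% in blastocysts, 1 epiblast marker was higher in KD morulae and 6 were lower in KD blastocysts. Of the 12 trophectoderm markers, 6 were above 0 and 6 below 0 in morulae, 10 were above 0 in blastocysts, and 0 passed the test. At the unadjusted threshold, 3 of them were lower in KD morulae and 6 were higher in KD blastocysts. Their part in the Aes and Tle3 values was not tested.

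Markers of cells from the mother summed to far less than the lineage markers above. For scale, Dkk1 was at 150.1 and 64.1 in KD morulae and at 305 and 653 in KD blastocysts. The 12 cumulus, granulosa and stromal markers summed to 267 and 276 in KD morulae, against 88.1 and 186 in NC morulae, and to 156 and 393 in KD blastocysts, against 174 and 309.6 in NC blastocysts, with Fshr, Cyp19a1 and Dcn not listed or at 0 in every library. The 7 oviduct and uterine markers summed to 151 and 80.5 in KD morulae, against 86.8 and 41.4 in NC morulae, and to 320.4 and 570.5 in KD blastocysts, against 284 and 289 in NC blastocysts, with Foxj1 and Ltf not listed or at 0 throughout. The 7 blood markers summed to 19.6 to 99.9 in the KD libraries and 23.1 to 185 in the NC libraries. The cumulus group stood higher in KD morulae, and the oviduct group higher in KD blastocysts, without overlap; their part in the Dkk1 values was not tested.

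Around the 7 genes, 120 genes in 7 lists of the Wnt pathway and of Groucho partners were read in the same fits. Of these, 77 were tested in morulae and 79 in blastocysts. By limma, 0 passed the test at either stage, and 11 in morulae and 16 in blastocysts had an unadjusted p under 0.05, beside 10.4% and 17.6% of all tested genes. The lowest adjusted p was 0.343 in morulae and 0.0850 in blastocysts. In morulae 33 of 77 had KD and NC libraries that did not overlap, 23 with KD above and 10 with KD below, beside 41.9% of all tested genes (20.7% above and 21.2% below). In blastocysts 36 of 79 did not overlap, 19 with KD above and 17 below, beside 49.5% of all (24.6% above and 24.9% below). The median log2 fold change was 0.07 in morulae and 0.01 in blastocysts, against -0.01 and 0.00 over all tested genes. The genes named next have the smallest unadjusted p of their list, so that they are the extremes of each list.

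**Figure D3:**
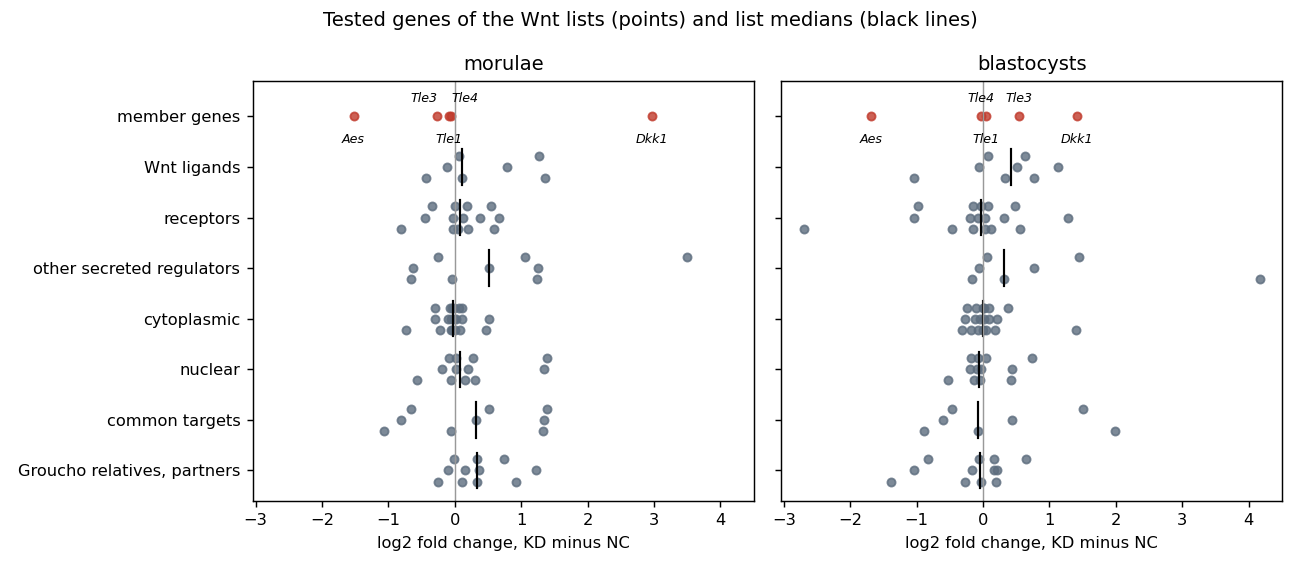
Log2 fold change (KD minus NC) of every tested gene, 1 row per list, morulae on the left and blastocysts on the right. Grey points are genes of the 7 lists, black lines are list medians, and red points are the 5 tested member genes; Aes at -1.52 and -1.68 lies on the far left of its row and Dkk1 at 2.97 and 1.42 on the far right.

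Among the secreted regulators, Sfrp1, a decoy that binds Wnt proteins, came closest to the threshold. It was at 964 and 951 in KD morulae, against 671 and 667 in NC morulae, and at 1241 and 1178 in KD blastocysts, against 663 and 758 in NC blastocysts. The KD libraries stood above the NC libraries at both stages, with a log2 fold change of 0.52 (limma adjusted p = 0.402) in morulae and 0.77 (adjusted p = 0.0850) in blastocysts. Its relatives Sfrp2, Sfrp5 and Frzb had low values. Sfrp2 was at 19.1 and 25.8 in KD morulae, against 1.64 and 0.61 in NC morulae, and Frzb at 52.6 and 17.5 in KD blastocysts, against 2.07 and 0 in NC blastocysts. Sfrp5 was at 36.6 and 32.7 in KD morulae, against 11.1 and 17.5 in NC morulae. Its blastocyst values were 19.3 and 12.5 in KD, against 2.70 and 8.91 in NC. Of the list's tested genes, 5 of 9 in morulae and 5 of 7 in blastocysts had a fold change above 0.

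The ligand and receptor lists held genes in both directions. Wnt6 was at 70.2 and 76.8 in KD morulae, against 27.7 and 28.4 in NC morulae, and at 727 and 856 in KD blastocysts, against 438 and 596 in NC blastocysts. Wnt9a was at 257.2 and 256.8 in KD blastocysts, against 100.4 and 137 in NC blastocysts. These were the ligands with the smallest p in the 2 stages, and their adjusted p was 0.403 and 0.118. The other ligands named by that rule were Wnt2b, with a log2 fold change of 1.27 in morulae and 0.51 in blastocysts, and Wnt11, with -1.05 in blastocysts and below the filter in morulae. Among the ligands 5 of 7 tested genes in morulae and 6 of 8 in blastocysts were above 0.

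Of the receptors, Lrp6, the co-receptor bound by Dkk1, was at 735 and 762 in KD morulae, against 1078 and 965 in NC morulae, and at 857 and 929.5 in KD blastocysts, against 939 and 950.3 in NC blastocysts. Kremen2, which removes Lrp6 from the surface together with Dkk1, was at 186 and 202 in KD morulae, against 129.5 and 135 in NC morulae. In blastocysts Kremen2 was at 241 and 325 in KD, against 109.5 and 122 in NC. Thus the KD libraries lay below NC for Lrp6 and above NC for Kremen2 at both stages, with adjusted p between 0.101 and 0.776. Their relatives did not share this. Lrp5, the other co-receptor bound by Dkk1, had log2 fold changes of -0.03 in morulae and 0.02 in blastocysts. Kremen1 had 0.01 and 0.12, and both genes overlapped between KD and NC at both stages. Znrf3, the ubiquitin ligase that R-spondins block, was at 168 and 136 in KD morulae, against 315 and 225 in NC morulae, and at 285 and 191 in KD blastocysts, against 348 and 297.5 in NC blastocysts. Fzd6, a Frizzled receptor gene, had 0 and 6.67 in KD blastocysts, against 14.4 and 19.97 in NC blastocysts. In all, 9 of 14 tested receptor genes in morulae and 8 of 17 in blastocysts were above 0.

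In the cytoplasm, Ctnnb1, the gene of β-catenin, was at 9149 and 8209 in KD morulae, against 8973 and 7253 in NC morulae, and at 13136 and 12492 in KD blastocysts, against 11052 and 8865 in NC blastocysts. Axin2, a scaffold of the destruction complex and a Wnt target, was at 345 and 378 in KD morulae, against 254 and 249.8 in NC morulae, and overlapped in blastocysts. The scaffold gene Axin1 and the tankyrase gene Tnks2 had log2 fold changes of -0.30 and -0.22 in morulae and of -0.27 and -0.24 in blastocysts. The destruction complex genes Apc2 and Apc had -0.06 and 0.07 in morulae and 1.39 and -0.32 in blastocysts. None of these passed the test. The list had medians of -0.02 in morulae and 0.01 in blastocysts, with 8 of 20 tested genes in morulae and 10 of 19 in blastocysts above 0. In the nuclear list, Tcf7, a TCF factor, was at 368 and 315 in KD morulae, against 152 and 109 in NC morulae, and its groups overlapped in blastocysts. Tcf7l2, another TCF factor, was at 448 and 549 in KD blastocysts, against 309.9 and 286 in NC blastocysts. Pygo2, a β-catenin cofactor gene, had log2 fold changes of 0.31 in morulae and 0.42 in blastocysts, Tcf7l1 had 1.35 in morulae and -0.07 in blastocysts, and Bcl9 had 0.28 in morulae and -0.54 in blastocysts. Of the nuclear genes, 8 of 12 were above 0 in morulae and 4 of 12 in blastocysts.

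The common Wnt targets did not move together. Ccnd1, the gene of cyclin D1, was at 631 and 479 in KD morulae, against 192.5 and 239 in NC morulae, and at 344 and 179.8 in KD blastocysts, against 93.7 and 41.3 in NC blastocysts. Myc, a growth regulator, was at 124 and 241 in KD morulae, against 271 and 486 in NC morulae, and at 231 and 299 in KD blastocysts, against 404.5 and 589 in NC blastocysts. The KD libraries were therefore above NC for Ccnd1 and below NC for Myc at both stages, and neither passed the test, with adjusted p of 0.343 and 0.126 for Ccnd1 and 0.468 and 0.154 for Myc. Cdx1, a homeobox gene, was at 187.5 and 315 in KD blastocysts, against 54.0 and 133 in NC blastocysts. Of the list, 5 of 9 tested genes in morulae and 3 of 7 in blastocysts were above 0.

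Among Groucho relatives and partners, Tle6, a divergent family member that belongs to the subcortical maternal complex of the egg, was at 193 and 123 in KD morulae, against 63.9 and 66.3 in NC morulae. In blastocysts Tle6 was at 144 and 120.1 in KD, against 239.6 and 104.5 in NC, and the groups overlapped. Hhex, a homeodomain repressor that binds TLE proteins, was at 228 and 226 in KD morulae, against 141 and 129 in NC morulae, and its groups overlapped in blastocysts. Gsc, a homeodomain repressor, was at 102 and 148 in KD blastocysts, against 228 and 281 in NC blastocysts, and its groups overlapped in morulae. Hes1, a repressor that recruits TLE proteins, had a log2 fold change of -0.26 in morulae and -0.06 in blastocysts. Otx2 had 0.34 in morulae and 0.65 in blastocysts, and Hes6 had 0.36 and -0.83. In this list 8 of 11 tested genes in morulae and 5 of 12 in blastocysts were above 0.

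The surroundings of Aes on chromosome 10 showed whether neighbouring genes carried a similar difference. Of its 5 protein-coding neighbours on each side, Gna11, a G-protein subunit gene 14298 bases away, was at 1989 and 2092 in KD morulae, against 2153 and 2300.3 in NC morulae. In blastocysts Gna11 was at 2311 and 2309.5 in KD, against 2113 and 2230.2 in NC. Its log2 fold change was -0.13 in morulae and 0.09 in blastocysts. Of the neighbours tested, Ankrd24, 62178 bases away, had the lowest fold changes, -0.83 and -0.78, and Tle6 had the highest in morulae, 1.23. Ankrd24 was at 40.6 and 34.2 in KD morulae, against 92.5 and 48.7 in NC morulae, and at 62.7 and 41.5 in KD blastocysts, against 81.0 and 96.4 in NC blastocysts. Sirt6 was below NC at both stages (-0.22 and -0.25), and BC025920 was above NC at both (0.21 and 0.30). Gna15 was above NC in blastocysts (0.64) and overlapped in morulae. Celf5 and Ncln overlapped at both stages, as did S1pr4, which was tested in morulae only. None of the tested neighbours passed limma's test at either stage, with adjusted p from 0.337 upwards, and few genes of any kind passed. All of their fold changes were smaller in size than that of Aes. Aes was chosen for its difference, so this order was largely set by that choice.

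**Figure D4:**
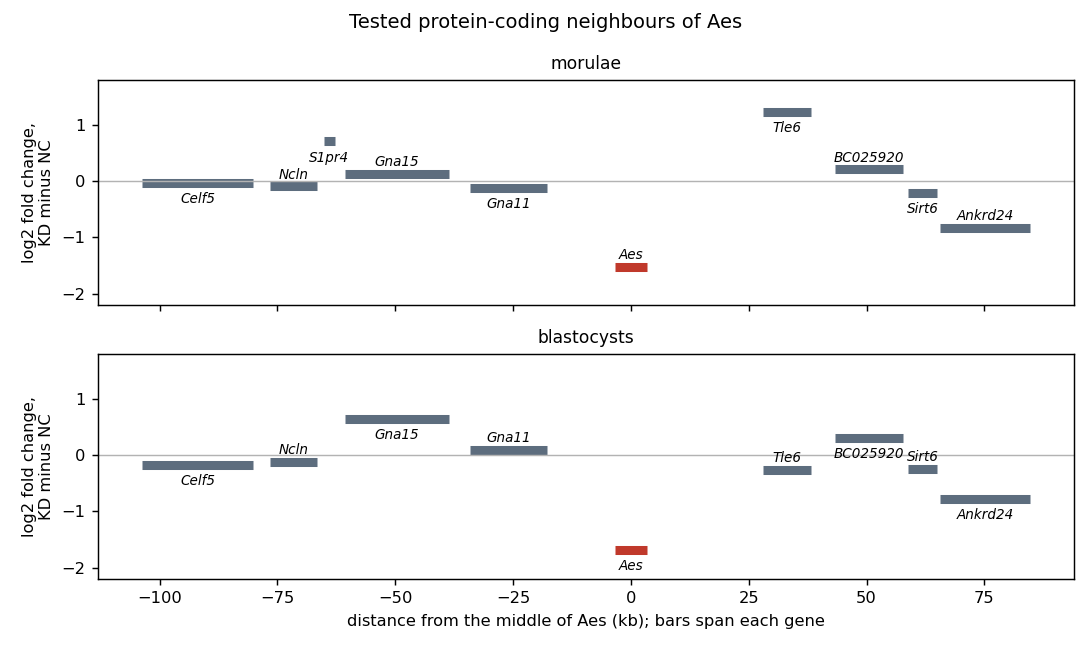
Log2 fold change (KD minus NC) of Aes (red) and its tested protein-coding neighbours (grey) against distance from the middle of Aes in kilobases, morulae above blastocysts; each bar spans its gene. Aes, which was chosen for its lower values in KD, lies at -1.52 in morulae and -1.68 in blastocysts, below every neighbour shown.

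Dkk1 lies in a region with few expressed genes. Prkg1, 14824 bases away, was not listed in morulae and had 0 and 4.14 in KD blastocysts, against 0 and 0 in NC blastocysts. The next neighbours lie at least 306176 bases away. Gldc, the glycine decarboxylase gene, was at 16917 and 17043 in KD morulae, against 21928 and 27135 in NC morulae, a log2 fold change of -0.52. Uhrf2, a relative of the DNA methylation cofactor Uhrf1, was at 83.3 and 132 in KD blastocysts, against 265 and 296 in NC blastocysts, a log2 fold change of -1.41 (limma adjusted p = 0.104). Il33 was higher in KD blastocysts, at 40.5 and 39.8, against 9.87 and 32.3 in NC blastocysts, and lay below the filter in morulae. Cstf2t and Sgms1 overlapped between the groups at both stages. Mbl2, Trpd52l3, Asah2 and A1cf were below the filter or not listed. None of the tested neighbours passed the test.

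The genes whose pattern over the 8 libraries was most like that of Aes were found by the root mean square difference of log2(abundance + 1), centred within each table, among the 12875 genes tested at both stages. They were Gng12 (0.10), Tst (0.18), Chga (0.20), Gpr146 (0.22) and Gm13230 (0.24). Gng12, a G-protein γ subunit gene, was at 141 and 184 in KD morulae, against 527 and 577 in NC morulae, and at 279 and 244 in KD blastocysts, against 810.4 and 905 in NC blastocysts. With a pseudocount of 10 in place of 1, 2 of these 5 genes stayed among the 5 nearest, Gng12 and Chga.

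For Dkk1 the 5 nearest genes were Apoa1 (0.30), Nfatc4 (0.31), Serpinh1 (0.42), Hspg2 (0.47) and Adora1 (0.49). Apoa1, an apolipoprotein gene, was at 1213 and 744 in KD morulae, against 205 and 89.6 in NC morulae, and at 1824 and 2486 in KD blastocysts, against 447 and 715 in NC blastocysts. Serpinh1, a collagen chaperone gene, was at 336 and 342 in KD morulae, against 57.6 and 37.6 in NC morulae. Hspg2, the gene of the basement membrane protein perlecan, was at 2131 and 3017 in KD blastocysts, against 614 and 993 in NC blastocysts. All but Adora1 stayed among the 5 nearest with a pseudocount of 10. These likenesses rest on the KD and NC contrast that chose Aes and Dkk1 and on the shared libraries, and they are a description.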

How the data were processed

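The deposited unit is a normalized signal for each Ensembl gene, called abundance here, which the authors gave in separate tables for morulae and blastocysts. The submitters' processing notes name mm10, Salmon 0.14.1 and DESeq2, with no role for either tool. Low values were whole multiples of a step (within 0.01) in at least 95.0% of genes seen in 1 library but in 11.4% to 30.3% of the others, so counts could not be rebuilt and count models were not used. Symbols came from the GENCODE annotation of mm10 (98.9% of IDs matched). KD was compared with NC within each table by limma 3.58.1 (R 4.3.3) on log2(abundance + 1) with a mean-variance trend, for genes with a mean of at least 10. The stage difference was an interaction over both tables. On simulated data for KD against NC, 60% of 2-fold and 86% of 4-fold changes were recovered among 13404 genes in morulae, and 64% and 88% among 13651 in blastocysts. In the same runs, 8.75% of the calls in morulae and 6.17% in blastocysts were false. The simulated spread of a gene was set by its mean level alone, with no effect of single libraries. Spread that differs between genes of the same level was left out, so these shares need not hold for the deposited data. In the deposited data Sfrp2 was not called in morulae, at 19.1 and 25.8 in KD against 1.64 and 0.61 in NC. A gene that did not pass may therefore still differ. The members, the 7 pathway lists and the 6 marker lists were chosen with earlier results of these data known. Named are all members, for each pathway list and stage up to 3 genes of smallest p, the 5 genes nearest in pattern and 5 neighbours on each side. Some marker genes, such as Sox17 and Gata4, were named outside these rules. The other settings tried numbered 17.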

Additional observations from a re-analysis of the deposited data

Results flagged for a closer look

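Tle3 was singled out because its KD libraries were both below the NC libraries in morulae and both above them in blastocysts. The KD effect in blastocysts minus that in morulae was 0.80 on the log2 scale, and limma's interaction test did not pass after adjustment (adjusted p = 0.775). Groups of 2 libraries allow no check for single outlying values.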

How the results depend on the processing

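The direction of Aes and Dkk1 held under every setting tried, but both genes were chosen for this direction. Their KD and NC libraries did not overlap at either stage, so leaving out 1 library could not reverse it. With 1 library left out, the log2 fold changes for Aes were -1.68 to -1.37 in morulae and -1.81 to -1.55 in blastocysts. For Dkk1 they were 2.35 to 3.59 in morulae and 0.86 to 1.98 in blastocysts. The stage difference ranged from -0.31 to -0.0045 for Aes and from -2.17 to -0.93 for Dkk1. For Tle3 the ranges were -0.35 to -0.19 in morulae, 0.37 to 0.70 in blastocysts and 0.64 to 0.97 for the stage difference. Tle1 ranged from -0.11 to -0.07 in morulae and from 0.01 to 0.25 in stage difference. In blastocysts it ranged from -0.0797 (without KD replicate 2) to 0.16. Tle4 ranged from -0.18 to 0.0800 (without NC replicate 2) in morulae. In blastocysts it ranged from -0.27 to 0.21 (without NC replicate 2), with 0.20 without KD replicate 1. Its stage difference ranged from -0.22 to 0.26 and was -0.0209 after quantile normalization. The cause was not tested.

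The number of genes called, 1 in morulae and 12 in blastocysts, was 0 at both stages without the mean-variance trend (1261 and 2020 genes at an unadjusted p under 0.05). It was 18 in morulae with 1 fit over both tables and 27 in blastocysts without the filter on low values. With 1 library left out it was 1 to 9 in morulae, 1 to 7 in blastocysts and 0 to 2 for the stage difference, where all libraries gave 0.

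The labels share replicate numbers but do not say that they pair libraries. With 2 numbers, deviations from the group means correlated at 0.297 in morulae and 0.146 in blastocysts. A replicate block raised the calls to 892 in morulae, 1208 in blastocysts and 1 for the stage difference. With the block, Tle3 passed in blastocysts at the same fold change of 0.54 (limma adjusted p = 0.0107). Of the pathway genes, 5 in morulae and 11 in blastocysts then passed. With the length of the longest transcript in place of merged exons, Aes made up 13.9% of the family in KD and 30.2% in NC morulae, and 12.9% in KD and 34.5% in NC blastocysts. The ranks also moved. Aes (34.7%) then exceeded Tle4 (32.0%) in NC blastocyst replicate 1, and the 2 genes overlapped in NC blastocysts. In KD morulae Aes (105 and 129 per kb) then lay below Tle1 (143 and 147). Tle2 and Rspo3 lay below the filter on low values in both tables.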
